A study of Homo sapiens with 8 samples.

Results

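PDA driver genes and RAS paralogs, 8 genes in all, were followed in RNA-seq libraries of SUIT2, a human cell line of pancreatic ductal adenocarcinoma (PDA): the RAS paralogs *HRAS* and *NRAS*, the cell cycle inhibitors *CDKN2A* and *CDKN2B*, the TGF-β signal transducers *SMAD2*, *SMAD3* and *SMAD4*, and the chromatin remodelling subunit *ARID1A*. The 8 genes were chosen by name, and all 8 were found by their NCBI gene number among the 25702 genes listed in each of 8 libraries. SUIT2 is labelled as epithelial cells of the pancreas, and all libraries came from total RNA of this line. By the paper's methods, poly(T) beads selected mRNA from the total RNA before the libraries were built. Of the 8 libraries, 4 were labelled with a scramble shRNA (shScr), 2 with the first shRNA construct against the homeobox gene *EN1* (shEN1 #1) and 2 with the second construct (shEN1 #2). No further treatment, genotype or clone was given for any group, and the labels did not say whether replicates were separate cultures, so the p-values below measure only the spread between these libraries. The comparison asked whether RNA of the 8 genes differed where *EN1* was targeted.

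RAS proteins are small GTPases that switch between a GDP-bound resting and a GTP-bound active state and pass growth factor signals to the RAF, PI3K and RAL pathways. *CDKN2A* encodes INK4A, which inhibits the cyclin D kinases CDK4 and CDK6 upstream of RB, and, from another first exon and reading frame, ARF, which inhibits MDM2. Its neighbour *CDKN2B* encodes INK4B, a kinase inhibitor of the same family. *SMAD2* and *SMAD3* encode the receptor-activated SMADs of TGF-β signalling, and *SMAD4* encodes the common SMAD with which they enter the nucleus. *ARID1A* encodes the large DNA-binding subunit of a class of SWI/SNF chromatin remodelling complexes. Losses in *CDKN2A*, *SMAD4* and *ARID1A* recur in PDA.

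The libraries held between 33423590 and 37810604 counts. The targeted gene did not separate the labels. *EN1* was counted at 4.10, 4.50, 4.94 and 2.51 CPM (counts per 1000000 of the TMM-normalised library size) in shScr replicates 1 to 4, at 5.77 and 5.41 CPM in shEN1 #1, and at 1.35 and 6.70 CPM in shEN1 #2. Only shEN1 #2 replicate 1 lay below every library labelled shScr, and 3 of the 4 libraries labelled shEN1 lay above every one of them. The log2 fold change was 0.26 (SE 0.43, adjusted p = 1.00, edgeR), and p was 0.543 when the CPM values were permuted exactly (two-sided). Without shEN1 #2 replicate 1 the log2 fold change was 0.57, and without shEN1 #2 replicate 2 it was 0.057. *EN1* thus did not bear out the labels, and whether each library carries the construct it is labelled with was not tested. Every difference between shEN1 and shScr below is one between labels. By expression, shScr replicate 4 was nearest to shEN1 #2 replicate 1 of all pairs of libraries, at a root mean square log2 difference of 0.395 over the tested genes. The other pairs lay between 0.488 and 0.841, and shScr replicate 3 with shEN1 #1 replicate 1 stood at 0.512. The library nearest to each shScr library was labelled shEN1. For shScr replicates 3 and 4 it was the library just named. For shScr replicate 1 it was shEN1 #1 replicate 2 (0.510), and for shScr replicate 2 it was shEN1 #2 replicate 2 (0.488). Of these, shEN1 #1 replicate 2 was itself nearest to shEN1 #2 replicate 2 (0.495). These matches were read from the data, and no fit took them as a block. All 8 epithelial and ductal markers were tested, and they summed to 11728 to 15964 CPM in shScr and 11465 to 18609 CPM in shEN1. Of 12 markers of immune, endothelial, fibroblast, acinar and endocrine cells, 7 had 0 counts in every library, among them *PTPRC*, *CDH5*, *COL3A1* and *INS*, and 2 (*CD68* and *COL1A1*) passed the filter on low counts. These 12 summed to 10.1 to 32.5 CPM in shScr and 9.75 to 37.5 CPM in shEN1.

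Of the 8 genes, 6 were expressed well above that filter, and none of the 6 passed the test between the libraries labelled shEN1 and shScr. *CDKN2B* had no count in any library, and *SMAD4* had at most 13 reads in a library, so neither was tested. In the edgeR quasi-likelihood test over 14333 genes, with both constructs pooled, 0 genes (0%) passed an adjusted p of 0.05. An unadjusted p below 0.05 was reached by 44 genes (0.307%), of which 0 were among the 6. This share lies far below the 0.05 expected if no gene differed and the test were exact. The test was thus strict in these libraries, and a gene that did not pass it is not shown to be unchanged. DESeq2 called 2 genes and limma-voom 0, again none of the 6. The CPM of the groups did not overlap for 60 genes (0.419%), whereas all 6 overlapped. In bulk RNA, fewer cells expressing a gene and less RNA per cell cannot be told apart.

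**Figure D1:**
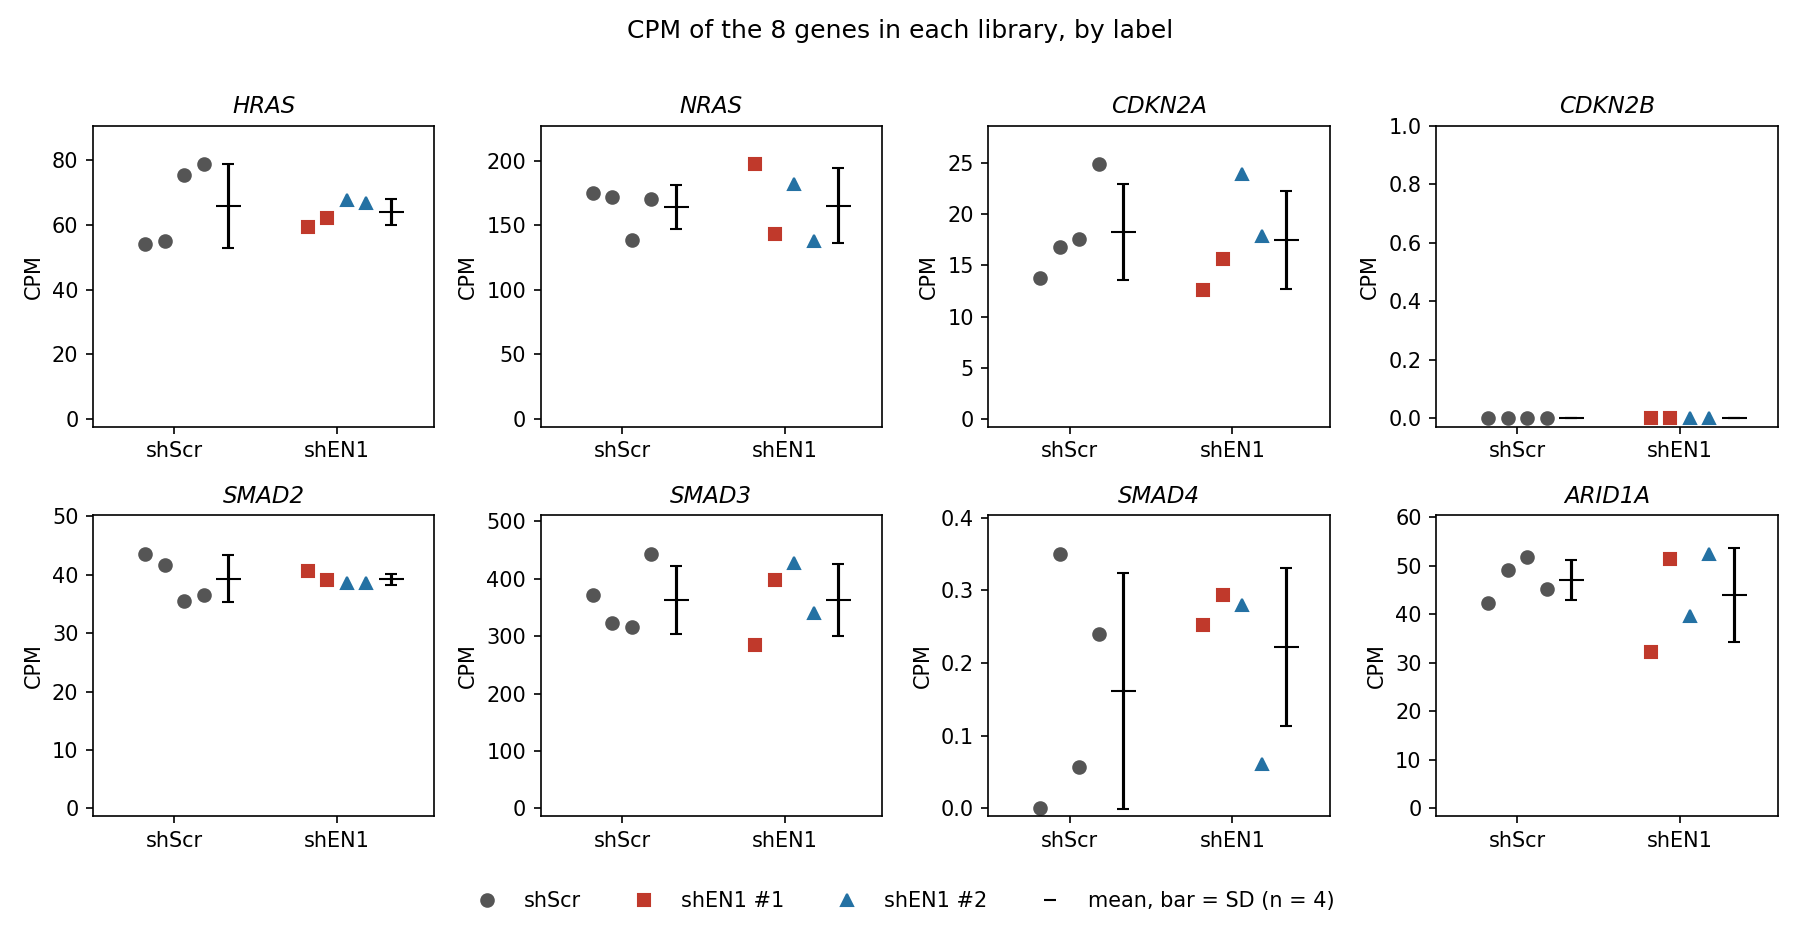
CPM of each of the 8 genes (vertical axes, each from 0) in the 4 libraries labelled shScr and the 4 labelled shEN1, 1 point per library, with the mean and SD (n = 4) to the right of each group. The groups overlap in every panel, *CDKN2B* is at 0 throughout, and *SMAD4* stays at or below 0.351 CPM.

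*HRAS* lies on the minus strand of chromosome 11 (GRCh37, chr11:532242-537321). It was counted at 54.1, 55.1, 75.4 and 78.8 CPM in shScr replicates 1 to 4, at 59.5 and 62.1 CPM in shEN1 #1, and at 67.8 and 67.0 CPM in shEN1 #2. The shScr libraries thus fell into a low and a high pair, and all 4 shEN1 libraries lay between these pairs. The means were 65.9 ± 13.1 CPM for shScr and 64.1 ± 3.95 CPM for shEN1 (SD, n = 4 each). The log2 fold change was -0.039 (SE 0.15, 95% interval -0.32 to 0.25, adjusted p = 1.00, edgeR). The 95% intervals of fold changes, here and below, are normal approximations from the SE. They are narrower than the F test that gave p would imply.

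*NRAS* lies on the minus strand of chromosome 1 (GRCh37, chr1:115247090-115259392). Its levels were 174.8, 172.2, 138.4 and 170.1 CPM in shScr replicates 1 to 4, 197.3 and 143.5 CPM in shEN1 #1, and 181.6 and 137.9 CPM in shEN1 #2. Each construct held 1 library above and 1 below the shScr mean of 163.9 ± 17.1 CPM, and the shEN1 mean was 165.1 ± 28.98 CPM (SD, n = 4 each). The difference was 0.011 on the log2 scale (SE 0.14, 95% interval -0.27 to 0.29, adjusted p = 1.00, edgeR). The log2 ratio of *HRAS* to *NRAS* within a library does not depend on the scaling. It was -1.69, -1.64, -0.88 and -1.11 in shScr and -1.73, -1.21, -1.42 and -1.04 in shEN1. The means differed by -0.020, and an exact two-sided permutation test gave p = 0.943 (0.971 adjusted over the 2 ratios that could be formed), where the smallest p that 4 against 4 libraries allow is 0.0286. No stretch of 50 bases was shared between annotated transcripts of *HRAS* and *NRAS*, so the counting had no such stretch to confuse.

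Genes next to the RAS paralogs were counted as well. *LRRC56*, 206 bases from *HRAS* on the opposite strand, was at 4.09 to 8.75 CPM (log2 fold change -0.11, SE 0.28, adjusted p = 1.00, edgeR). *RNH1*, the ribonuclease inhibitor gene on the other side of *HRAS*, was at 169 to 243 CPM, and *DENND2C*, next to *NRAS*, at 0.942 to 3.92 CPM.

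The INK4 genes lie 7602 bases apart on the minus strand of chromosome 9 (GRCh37), *CDKN2A* at chr9:21967751-21995300 and *CDKN2B* at chr9:22002902-22009304. *CDKN2A* was at 13.8, 16.8, 17.6 and 24.9 CPM in shScr replicates 1 to 4, at 12.6 and 15.6 CPM in shEN1 #1, and at 23.9 and 17.8 CPM in shEN1 #2. Its highest values came from shScr replicate 4 and shEN1 #2 replicate 1, the nearest pair of libraries, and its lowest from shEN1 #1 replicate 1. The means were 18.3 ± 4.71 CPM for shScr and 17.5 ± 4.79 CPM for shEN1 (SD, n = 4 each). The log2 fold change was -0.063 (SE 0.23, 95% interval -0.52 to 0.39, adjusted p = 1.00, edgeR).

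*CDKN2B* had 0 reads in each of the 8 libraries, whereas *CDKN2A* had between 450 and 942 reads in each and 5130 in all. A count of 0 allows up to 3 reads, which is between 0.0762 and 0.0922 CPM in a library and 0.0106 CPM over the 283955576 counts of all libraries. These limits cover counting error only. A gene without reads is common in these files: 3450 of 18933 protein-coding genes (18.2%) had 0 reads in all 8 libraries. The antisense RNA of the locus, *CDKN2B-AS1*, was also listed at 0 reads in every library. On either side of the INK4 genes, *MTAP*, which encodes the methionine salvage enzyme methylthioadenosine phosphorylase, had between 7422 and 12536 reads, and *DMRTA1*, a transcription factor gene 437519 bases from *CDKN2B*, had between 135 and 235. *MTAP* had 10983, 12536, 9262 and 7422 reads in shScr replicates 1 to 4, 11002 and 9410 in shEN1 #1, and 7598 and 9305 in shEN1 #2. Its lowest counts were thus in the libraries where *CDKN2A* was highest. By CPM, these were also the 2 lowest libraries for 19.2% of all tested genes. Neither neighbour passed the test between the labels (log2 fold changes -0.091, SE 0.19, for *MTAP* and -0.032, SE 0.24, for *DMRTA1*, adjusted p = 1.00 each, edgeR).

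*CDKN2A* and *CDKN2B* are close paralogs, and how the counting treated reads that match both is not given in the sources used here, so this part of their counts is uncertain. Of the 50-base words of *CDKN2A* transcripts, 498 (12.1%) were also words of *CDKN2B-AS1*, which is transcribed from the opposite strand, and whether the counting used strand is not given in the sources used here.

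The promoters of the INK4 genes are shown because 1 gene of the pair was counted in every library and the other in none. Counts are per gene, so they do not tell which *CDKN2A* start, and thus INK4A or ARF, the reads came from. Each window runs from 250 bases before to 50 bases after a RefSeq start (GRCh38.p14, 5′ to 3′ on the gene's strand). Capitals mark the GC box GGGCGG, searched on both strands (CCGCCC on the other):
CDKN2A, upstream start, chr9:21995275-21995574: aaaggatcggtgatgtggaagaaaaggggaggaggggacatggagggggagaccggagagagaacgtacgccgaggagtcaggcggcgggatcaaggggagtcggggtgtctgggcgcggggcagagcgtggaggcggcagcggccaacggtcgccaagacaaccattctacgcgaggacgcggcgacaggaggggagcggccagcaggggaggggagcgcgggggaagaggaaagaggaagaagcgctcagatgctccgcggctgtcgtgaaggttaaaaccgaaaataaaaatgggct
CDKN2A, downstream start, chr9:21974808-21975107: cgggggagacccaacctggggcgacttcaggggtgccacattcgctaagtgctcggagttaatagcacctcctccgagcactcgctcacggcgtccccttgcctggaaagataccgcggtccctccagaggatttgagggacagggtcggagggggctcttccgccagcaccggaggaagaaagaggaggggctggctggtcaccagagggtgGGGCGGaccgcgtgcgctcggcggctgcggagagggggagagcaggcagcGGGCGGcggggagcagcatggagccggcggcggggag
CDKN2B, chr9:22009256-22009555: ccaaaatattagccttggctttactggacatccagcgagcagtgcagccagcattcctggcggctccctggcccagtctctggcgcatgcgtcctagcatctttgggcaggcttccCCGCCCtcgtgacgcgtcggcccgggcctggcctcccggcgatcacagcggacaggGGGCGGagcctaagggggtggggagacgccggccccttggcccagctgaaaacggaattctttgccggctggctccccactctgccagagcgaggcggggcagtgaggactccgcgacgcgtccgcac
The upstream *CDKN2A* window held 0 GC boxes at a GC content of 63.3%, the downstream one 2 at 69.0%, and the *CDKN2B* window 2 at 67.3%. Over 34796 RefSeq promoter windows of the same length, 44.9% held a GC box and the median GC content was 58.7%. The *CDKN2B* window also held the letters TGACG, searched on both strands and found in 24.5% of all windows, and neither *CDKN2A* window did.

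**Figure D2:**
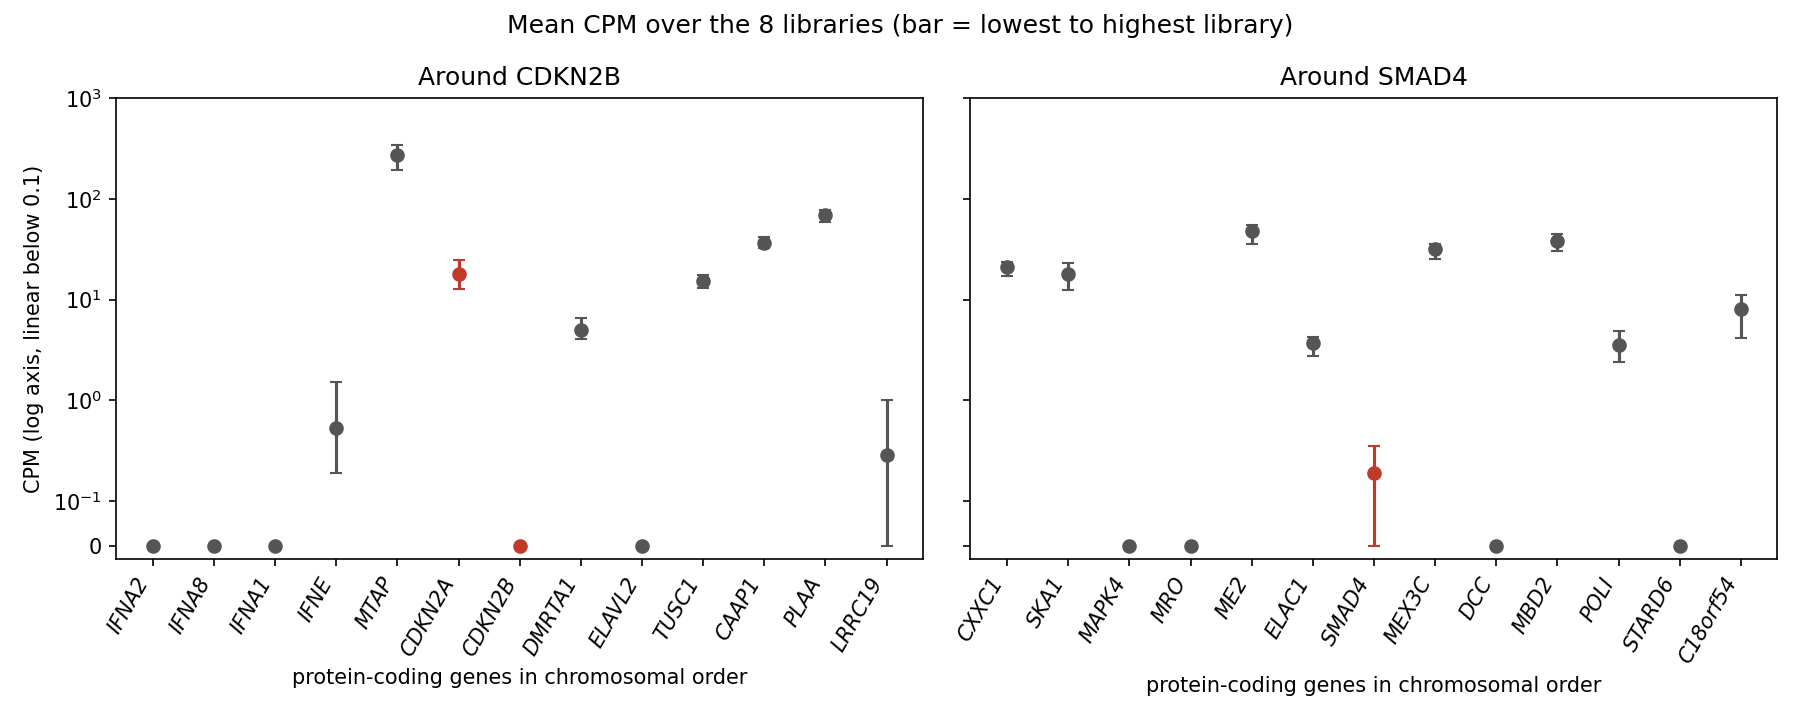
Mean CPM over the 8 libraries (vertical axis, logarithmic and linear below 0.1) of the 6 protein-coding genes on either side of *CDKN2B* and of *SMAD4* in chromosomal order, with bars from the lowest to the highest library. *CDKN2B* is at 0 and *SMAD4* averages 0.192 CPM (both red, as is *CDKN2A*), while the genes next to them have reads in every library; CPM is not scaled by length.

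Among the SMADs, *SMAD3* and *SMAD2* were expressed in every library and *SMAD4* had few reads. *SMAD3* (GRCh37, chr15:67356101-67487511, plus strand) was at 371, 322, 316 and 444 CPM in shScr replicates 1 to 4, at 285 and 398 CPM in shEN1 #1, and at 427 and 340 CPM in shEN1 #2. As with *CDKN2A*, shScr replicate 4 and shEN1 #2 replicate 1 were the highest and shEN1 #1 replicate 1 the lowest. The group means were 363 ± 59.0 CPM for shScr and 363 ± 62.9 CPM for shEN1 (SD, n = 4 each). The log2 fold change was -0.0023 (SE 0.16, 95% interval -0.31 to 0.31, adjusted p = 1.00, edgeR).

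*SMAD2* (GRCh37, chr18:45335328-45457517, minus strand) was the steadiest of the 6. It was counted at 43.6, 41.7, 35.4 and 36.5 CPM in shScr replicates 1 to 4, at 40.6 and 39.2 CPM in shEN1 #1, and at 38.6 and 38.5 CPM in shEN1 #2. All shEN1 libraries again lay between a low and a high pair of shScr libraries, with the pairs in the opposite order to *HRAS*. The means were 39.3 ± 3.97 CPM for shScr and 39.2 ± 0.972 CPM for shEN1 (SD, n = 4 each), a log2 fold change of -0.0038 (SE 0.11, 95% interval -0.22 to 0.21, adjusted p = 1.00, edgeR). The *SMAD2* to *SMAD3* ratio of CPM ran from 0.0823 to 0.142 over the libraries, and its log2 means differed by 0.0070 between the labels (exact two-sided permutation test, p = 0.971, also 0.971 adjusted). Transcripts of *SMAD2* and *SMAD3* shared no run of 50 bases.

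*SMAD4* (GRCh37, chr18:48554898-48611415, plus strand) had 0, 13, 2 and 9 reads in shScr replicates 1 to 4, 9 and 10 reads in shEN1 #1, and 11 and 2 reads in shEN1 #2. These 56 reads stand beside 11152 for *SMAD2* and 103491 for *SMAD3* in the same libraries. In CPM, *SMAD4* was at 0.162 ± 0.162 in shScr and 0.222 ± 0.108 in shEN1 (SD, n = 4 each), and the difference of 0.0597 gave p = 0.571 in an exact two-sided permutation test. The exact 95% Poisson interval of the highest library, shScr replicate 2, was 6.92 to 22.2 reads. For the 0 reads of shScr replicate 1, the same two-sided interval reached 3.69 reads. The intervals did not overlap although both libraries carry the same label. These libraries were picked as the highest and the lowest after the counts were seen, so this is a description and not a test. Per kilobase of the canonical transcript, *SMAD4* was at 0.0219 ± 0.0150 RPKM over the 8 libraries and *SMAD2* at 1.13 ± 0.0772 RPKM (SD, n = 8), with non-overlapping ranges. Among protein-coding genes, 5578 of 18933 (29.5%) had at most 13 reads in every library, as *SMAD4* did.

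**Figure D3:**
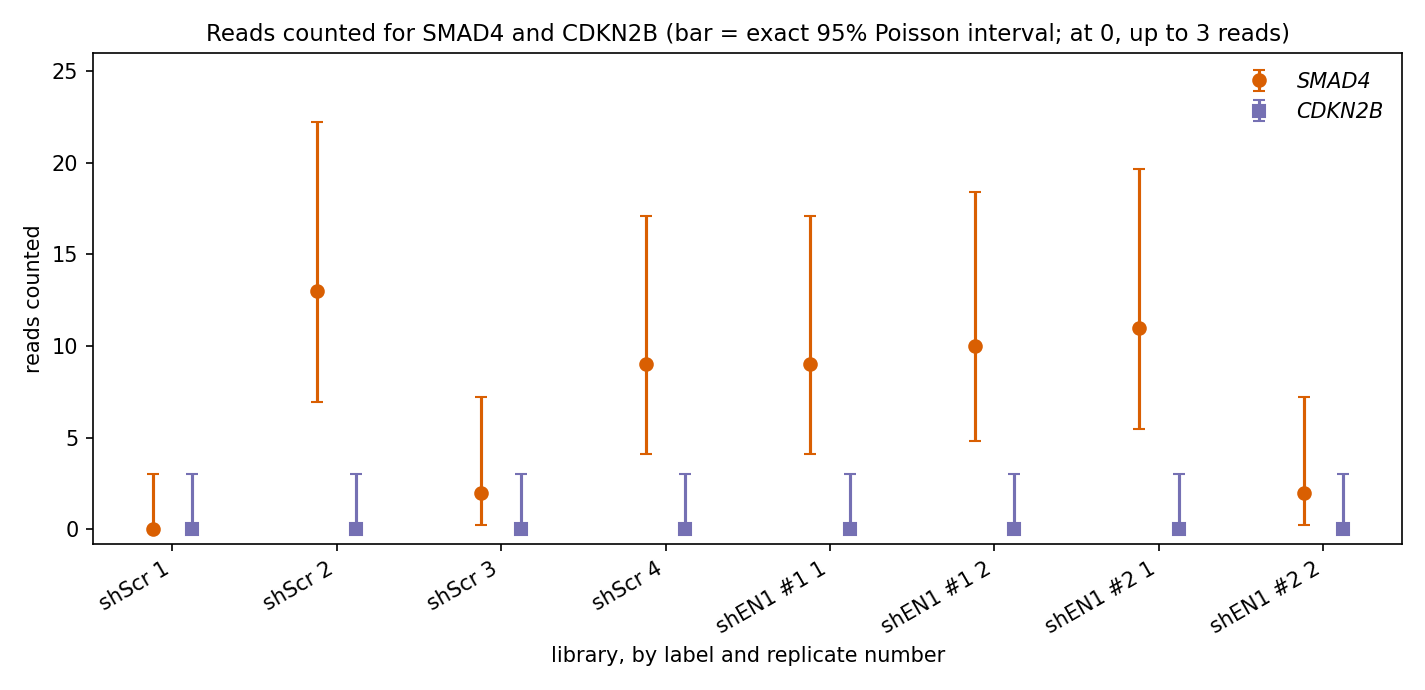
Reads counted for *SMAD4* (circles) and *CDKN2B* (squares) in each library, with exact 95% Poisson intervals where reads were counted and bars up to 3 reads where none were. *SMAD4* ranges from 0 to 13 reads within shScr alone, and *CDKN2B* is at 0 in all 8 libraries.

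The genes that flank *SMAD4* were counted in every library. *ELAC1*, a tRNA-processing enzyme gene that ends 40407 bases before *SMAD4*, had between 97 and 166 reads (2.78 to 4.22 CPM), and *MEX3C*, an RNA-binding protein gene that lies 89505 bases beyond it, had between 885 and 1294 reads (25.4 to 35.8 CPM). Their log2 fold changes were 0.15 (SE 0.23) and -0.014 (SE 0.14), with adjusted p = 1.00 for both (edgeR). One gene further on, the netrin receptor gene *DCC* had 0 reads in all 8 libraries; it was singled out after its values were seen. The promoter of *SMAD4* is shown because it is the other gene of the 8 that did not pass the filter (RefSeq, GRCh38.p14, plus strand, capitals as above):
SMAD4, chr18:51029963-51030262: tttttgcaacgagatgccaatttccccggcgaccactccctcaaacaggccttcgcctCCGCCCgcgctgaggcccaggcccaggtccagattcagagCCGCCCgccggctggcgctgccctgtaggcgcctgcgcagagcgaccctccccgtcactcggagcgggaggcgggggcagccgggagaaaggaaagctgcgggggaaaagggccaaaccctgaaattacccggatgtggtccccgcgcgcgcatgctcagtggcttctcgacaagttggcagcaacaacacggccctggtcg
This window held 2 GC boxes at a GC content of 66.7%, close to the *CDKN2B* window, and it held TGACG on the other strand, as CGTCA. No window of the 8 genes, 14 in all, held the TATA box TATAAA (11.6% of all windows), the SMAD-binding palindrome GTCTAGAC (0.193%) or the E2F site TTTCCCGC (1.63%). The first *SMAD3* window and the *HRAS* window held the most GC boxes, 5 each.

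*ARID1A* (GRCh37, chr1:27019727-27108595, plus strand) was at 42.4, 49.1, 51.8 and 45.1 CPM in shScr replicates 1 to 4, at 32.3 and 51.4 CPM in shEN1 #1, and at 39.7 and 52.5 CPM in shEN1 #2. Replicate 1 of each construct lay below every shScr library, whereas replicate 2 lay within or just above their range. The means were 47.1 ± 4.17 CPM for shScr and 43.97 ± 9.72 CPM for shEN1 (SD, n = 4 each), and the log2 fold change was -0.10 (SE 0.16, 95% interval -0.42 to 0.22, adjusted p = 1.00, edgeR). The flanking genes *RPS6KA1*, which encodes a kinase downstream of MAPK signalling, and *PIGV*, which encodes an enzyme of GPI anchor synthesis, had log2 fold changes of 0.0100 (SE 0.15) and 0.020 (SE 0.25), with adjusted p = 1.00 for both.

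Each construct was also compared with shScr in a fit with 3 groups. Both contrasts use the same 4 shScr libraries. For shEN1 #1, 94 genes (0.656%) had an unadjusted p below 0.05, for shEN1 #2 there were 43 (0.300%), and between the constructs 153 (1.07%). None of the 6 tested genes was among them, and 0 genes passed an adjusted p of 0.05 in any of the 3 contrasts (edgeR). The shares at an unadjusted p again lay below the 0.05 expected if no gene differed. The widest contrast was that of *CDKN2A*, with a log2 fold change of -0.37 (SE 0.26) for shEN1 #1 and 0.19 (SE 0.25) for shEN1 #2. The constructs differed by 0.56 for this gene (SE 0.30, unadjusted p = 0.0870, adjusted p = 1.00, edgeR), by 0.32 without shEN1 #2 replicate 1 and by 0.76 without shEN1 #2 replicate 2, and the higher of the shEN1 #2 libraries was replicate 1. For the other 5 genes the values lay between -0.17 (*ARID1A*, SE 0.21) and 0.057 (*NRAS*, SE 0.18) for shEN1 #1 and between -0.037 (*NRAS*, SE 0.19) and 0.079 (*SMAD3*, SE 0.20) for shEN1 #2.

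**Figure D4:**
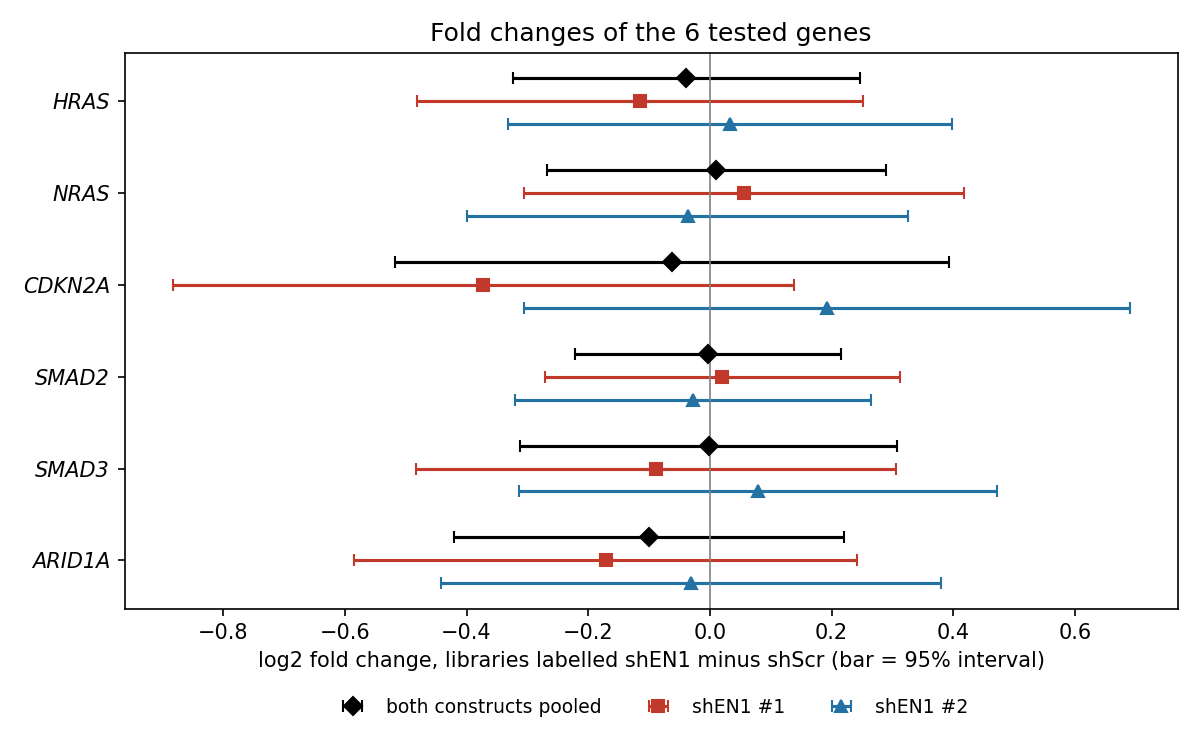
Log2 fold changes (horizontal axis) of the 6 tested genes in libraries labelled shEN1 against shScr, for both constructs pooled (diamonds), shEN1 #1 (squares) and shEN1 #2 (triangles), with 95% intervals. Every interval includes 0, and the values of *CDKN2A* for the constructs, -0.37 and 0.19, are the farthest apart.

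Against the other tested genes, the spread of the 6 was ordinary or small. The comparison was not matched for level. By mean CPM the 6 stood between percentile 44.3 (*CDKN2A*) and 97.0 (*SMAD3*) of the tested genes. The highest library exceeded the lowest 1.23-fold for *SMAD2*, 1.43-fold for *NRAS*, 1.46-fold for *HRAS*, 1.55-fold for *SMAD3*, 1.63-fold for *ARID1A* and 1.97-fold for *CDKN2A*, where the median of 14333 genes was 1.68-fold. *SMAD2* stood at percentile 4.83 of this ratio and *CDKN2A* at percentile 63.4. The same pair of libraries, shScr replicate 4 and shEN1 #2 replicate 1, was highest for *CDKN2A* and *SMAD3*, as it was for 18.9% of tested genes, and it was lowest for 19.2%. In this pair 5 of the 8 epithelial and ductal markers were lower than in all other 6 libraries: *KRT7* (198 and 192 CPM against 533 to 1080), *EPCAM* (234 and 241 against 366 to 589), *CDH1* (124 and 103 against 157 to 256), *KRT19* (400.3 and 321 against 831 to 1648) and *CLDN4* (28.9 and 21.6 against 41.8 to 59.6). The other markers, *KRT8*, *KRT18* and *MUC1*, overlapped the other 6 libraries, and the first 2 of these make up most of the summed level. Of the non-epithelial markers, *CD68* was at 8.38 and 7.75 CPM against 16.7 to 34.6 CPM, and *COL1A1* lay within the range of the others. These markers were named after their values were seen. The part of this difference between libraries in the values of *CDKN2A* and *SMAD3* was not tested. Across the 8 libraries, which share 1 cell line and 1 scaling, log2 CPM of *HRAS* and *SMAD2* had a Pearson r of -0.96, *NRAS* and *ARID1A* of -0.89, *HRAS* and *CDKN2A* of 0.72, and *CDKN2A* and *SMAD3* of 0.71. These are descriptions of 8 libraries and not tests.

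**Figure D5:**
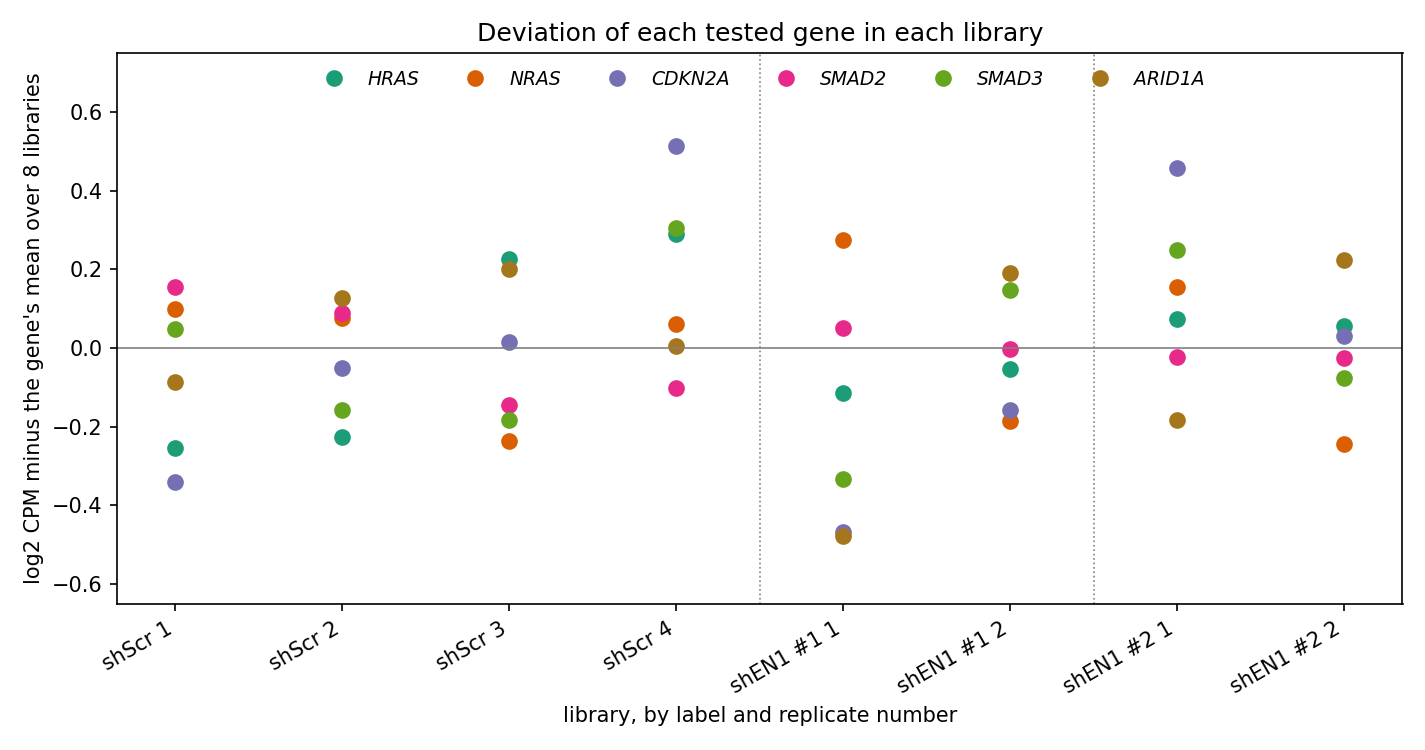
Deviation of log2 CPM from a gene's mean over the 8 libraries (vertical axis) for the 6 tested genes in each library (horizontal axis, grouped by label). *CDKN2A* and *SMAD3* are highest in shScr replicate 4 (0.51 and 0.30) and shEN1 #2 replicate 1 (0.46 and 0.25), and *SMAD2* stays within 0.16 of its mean throughout.

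Levels of different genes can be compared only per length of transcript. Per kilobase of the canonical transcript, *HRAS* was at 60.7 ± 8.42 RPKM, *SMAD3* at 56.1 ± 8.73, *NRAS* at 38.02 ± 5.09, *CDKN2A* at 18.3 ± 4.52, *ARID1A* at 5.30 ± 0.83 and *SMAD2* at 1.13 ± 0.0772 RPKM (SD, n = 8). *HRAS* and *SMAD3* overlapped, at 50.5 to 73.7 and 44.1 to 68.6 RPKM, as did *SMAD3* and *NRAS*, whose highest library was at 45.6. The levels of *NRAS*, *CDKN2A*, *ARID1A* and *SMAD2* did not overlap. The order depends on which transcripts are assumed. The canonical *SMAD2* transcript is 34626 bases long, and with the median length of its coding transcripts, 1378 bases, *SMAD2* rose to 28.5 ± 1.94 RPKM and from position 6 to position 4. By that rule *SMAD3* stood first at 186 ± 28.99 RPKM, and over all exons joined *NRAS* did at 38.02 RPKM. *SMAD4* and *CDKN2B* were the lowest by all 3 rules.

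For each tested gene the 2 genes most like it over the 8 libraries were taken from 13803 tested genes with a symbol, by Pearson r of log2 CPM. They were *DPP7* and *CDIPT* for *HRAS*, *SMU1* and *MEAF6* for *NRAS*, *EEF1A2* and *ZNF362* for *CDKN2A*, *VEZT* and *CWF19L1* for *SMAD2*, *UNKL* and *IQGAP3* for *SMAD3*, and *CC2D1A* and *NSDHL* for *ARID1A*. The r of these genes lay between 0.956 (*NSDHL*) and 0.986 (*UNKL*). As the highest of many values over 8 libraries, they describe likeness in these libraries alone.

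As 0 of all 14333 tested genes passed the test between the labels, no regulator, relative or effector of RAS did. Of 29 genes for RAS exchange factors, GTPase-activating proteins and RAS processing enzymes, 28 were tested, 17 with a higher and 11 with a lower estimate in shEN1, and 0 passed the test, with a median log2 fold change of 0.040 where that of all tested genes was -0.0028. The ends of this list were *RASGRF2*, an exchange factor, at 0.22 (SE 0.15, 24.6 ± 3.48 CPM in shScr and 28.6 ± 3.93 CPM in shEN1), and *RASAL1*, a GTPase-activating protein near the filter, at -1.11 (SE 0.98, 0.362 ± 0.160 and 0.169 ± 0.195 CPM). Of 15 RAS-related GTPases, 12 were tested, 5 higher and 7 lower with a median of -0.017, from *RAP2C* at 0.069 (SE 0.20) to *MRAS* at -0.19 (SE 0.68). *MRAS* was the least steady of the GTPases, at 0.844 to 5.72 CPM, and its highest libraries were again shEN1 #2 replicate 1 and shScr replicate 4. Of 16 RAS effectors, 15 were tested, 8 higher and 7 lower with a median of 0.022, from *RASSF5* at 0.18 (SE 0.20) to *RALGDS*, which activates RAL, at -0.10 (SE 0.14). Adjusted p was 1.00 for all of these (edgeR).

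In the INK4 pathway, of 18 genes for cyclins D and their kinases, other CDK inhibitors, RB proteins and E2F factors, 17 were tested, 9 higher and 8 lower with a median log2 fold change of 0.031. *E2F4*, an E2F that mainly acts with the RB-related pocket proteins, was the highest at 0.15 (SE 0.29) and *CDKN1C*, a CDK inhibitor, the lowest at -0.48 (SE 0.37). *E2F4* was at 59.3 CPM in shScr replicate 4 and 62.1 CPM in shEN1 #2 replicate 1, and at 109 to 147 CPM in the other 6 libraries. It was thus low where *CDKN2A* was high, and these were the 2 lowest libraries for 19.2% of all tested genes. The cyclin gene *CCND2*, named after its value was seen, had 0 reads in every library. Of 11 neighbours and regulators of the INK4 and ARF locus and partners of ARF, 10 were tested, 6 higher and 4 lower with a median of 0.046, from *MDM4*, an MDM2 relative, at 0.19 (SE 0.14) to the Polycomb subunit *CBX7* at -0.24 (SE 0.19). No tested gene of either list passed an adjusted or an unadjusted p of 0.05, beside 0% and 0.307% of all tested genes.

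In TGF-β signalling, of 19 other SMADs, SMAD modulators and receptors, 17 were tested, 12 higher and 5 lower with a median log2 fold change of 0.019. The ends were the ubiquitin ligase *SMURF2* at 0.13 (SE 0.15) and *SMAD1*, a SMAD of BMP signalling, at -0.13 (SE 0.18). Of 15 targets of SMAD3 and SMAD4, 14 were tested and *CDKN2B* was the other, with 8 higher and 6 lower and a median of 0.043. The transcription factor genes *SNAI2* at 0.44 (SE 0.61) and *SNAI1* at -0.25 (SE 0.61) were at its ends. *SNAI1* was near the filter, at 0.216 to 1.33 CPM over the libraries. *SNAI2* was at 1.44 and 1.63 CPM in shScr replicate 4 and shEN1 #2 replicate 1 and at 6.80 to 12.2 CPM in the others. The summed CPM of these targets lay between 1866 and 2084 in shScr and between 1914 and 2056 in shEN1.

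Of 27 SWI/SNF subunits other than ARID1A, 25 were tested, 14 higher and 11 lower with a median log2 fold change of 0.0075. The ATPase gene *SMARCA4* was highest at 0.13 (SE 0.12, 185 ± 17.4 CPM in shScr and 202 ± 22.6 CPM in shEN1) and the accessory subunit gene *BCL7A* lowest at -0.17 (SE 0.16). Of 19 other genes recurrently altered in PDA, 17 were tested, 13 higher and 4 lower with a median of 0.023. *SLIT2*, a guidance ligand, was highest at 0.31 (SE 0.33) and *ROBO1*, a receptor of the SLIT ligands, lowest at -0.10 (SE 0.15). The other 2 did not pass the filter, and 1 of these, the histone demethylase gene *KDM6A*, singled out after its counts were seen, had 0 reads in all 8 libraries. Across all these lists 0 genes passed the test at an adjusted or an unadjusted p below 0.05 (edgeR), beside 0.307% of all tested genes at the latter.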

How the data were processed

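RNA of SUIT2 cells was sequenced in 8 libraries (4 shScr, 2 shEN1 #1, 2 shEN1 #2), grouped by their titles. The values deposited by the authors are whole-number read counts per gene, not normalised. The paper's methods name HISAT2, the build hg19 and featureCounts. GEO's labels name a mouse build (mm9) instead, and the NCBI gene numbers in the files are human. Versions, annotation and strand setting are not given in the sources used here. How reads that match more than 1 gene were treated is likewise not given.

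Of 25702 genes, 23696 were given symbols by a RefSeq table. Genes were filtered with filterByExpr (14333 kept), scaled by TMM and tested with edgeR 4.0.16 (glmQLFit, robust, and glmQLFTest) in R 4.3.3, with Benjamini-Hochberg adjustment over all genes tested and an adjusted p below 0.05 as threshold. Scripts were tested on simulated data. Single values were compared by exact two-sided permutation in scipy 1.17.1. Alternatives used DESeq2 1.42.0, limma 3.58.1, other scalings and filters, a block and left-out libraries. Positions and transcript lengths came from GENCODE annotation lifted to GRCh37, promoters from RefSeq on GRCh38.p14 (all 8 genes matched). RPKM is CPM per kilobase.

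Named beside the 8 genes and *EN1* were the nearest gene with counts on each side (1 neighbour is not reported here), the 2 genes most like each, and the tested genes with the highest and lowest log2 fold change in each list, plus any at an unadjusted p below 0.05. The genes and lists were chosen with earlier results of these data known. Of 5 planned ratios, 3 could not be formed because *CDKN2B* or *SMAD4* had 0 reads.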

Additional observations from a re-analysis of the deposited data

Results flagged for a closer look

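The only value flagged among 22 groups of 4 libraries was *NRAS* in shScr replicate 3, at 138.431 CPM, where the other 3 shScr libraries lay between 170.1 and 174.8 CPM. Its gap to the nearest library was 0.872 of the group's range, above Dixon's 95% critical value, and chance alone would flag about 1.1 of 22 such groups. In libraries labelled shEN1, *NRAS* was as low in shEN1 #2 replicate 2 (137.9 CPM) and nearly so in shEN1 #1 replicate 2 (143.5 CPM).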

How the results depend on the processing

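No alternative brought any of the 6 tested genes past an adjusted p of 0.05. In the main pooled fit each estimate was smaller than its SE. Over the alternatives the pooled estimates ran from -0.30 (*NRAS*) to 0.24 (*HRAS*). The sign of each of the 6 turned under at least 2 of 19 alternatives, so no direction is stated for them. The causes were not tested. The count of called genes was 2 with DESeq2 and 1 with the replicate block, without shScr replicate 4 and shEN1 #2 replicate 1, and without these and shScr replicate 3 and shEN1 #1 replicate 1, and it lay between 0 and 1 when single libraries were left out (1 without shScr replicate 4). The gene called was *VAMP7*, joined with DESeq2 by 1 gene without a symbol.

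Libraries that share a replicate number were not taken as pairs, since the deviations of shScr and shEN1 libraries correlated at 0.0089 and -0.381 for number 1 and at 0.187 and 0.319 for number 2. The constructs were not compared with each other in this way. With the block, pooled log2 fold changes were 0.23 for *HRAS*, -0.093 for *NRAS*, 0.19 for *CDKN2A* and 0.066 for *SMAD3*, and for shEN1 #1 they were 0.16 for *HRAS*, -0.048 for *NRAS*, -0.12 for *CDKN2A* and -0.098 for *SMAD2*. The log2 ratios differed by 0.32 (*HRAS* to *NRAS*) and -0.17 (*SMAD2* to *SMAD3*) in this paired analysis. Without the pair shScr replicate 4 and shEN1 #2 replicate 1, values were 0.027 for *HRAS*, -0.023 for *NRAS* and 0.017 for *SMAD3*, with ratios of 0.078 and -0.035. Without both pairs, which leaves 2 libraries a group, they were 0.24 for *HRAS*, -0.30 for *NRAS* (unadjusted p = 0.00850, adjusted p = 0.401), 0.13 for *CDKN2A*, 0.089 for *SMAD3* and 0.18 for *ARID1A*, with ratios of 0.54 and -0.23, which were added after seeing the data. In that fit 1512 of 14273 genes had an unadjusted p below 0.05.

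*SMAD2* and *SMAD3* came to 0.0010 and 0.0026 with DESeq2's size factors, 0.0011 and 0.0026 with DESeq2, and 0.0052 and 0.0077 without a filter, and *SMAD2* to 0.0021 with limma-voom. Scaled by library size only, *NRAS* was at 0.0032 for shEN1 #2, and *SMAD2* at -0.012 for shEN1 #1, 0.0052 for shEN1 #2 and 0.017 between the constructs.

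Leaving out single libraries gave pooled log2 fold changes of -0.12 to 0.059 for *HRAS*, -0.086 to 0.087 for *NRAS*, -0.26 to 0.12 for *CDKN2A*, -0.051 to 0.050 for *SMAD2*, -0.093 to 0.11 for *SMAD3* and -0.20 to 0.023 for *ARID1A*. The ratios ranged from -0.14 to 0.13 (*HRAS* to *NRAS*) and from -0.13 to 0.099 (*SMAD2* to *SMAD3*). For shEN1 #1 the range was -0.19 to 0.28 for *NRAS*, -0.52 to -0.19 for *CDKN2A*, -0.026 to 0.075 for *SMAD2*, -0.33 to 0.13 for *SMAD3* and -0.53 to 0.13 for *ARID1A*. For shEN1 #2 it was -0.050 to 0.13 for *HRAS*, -0.26 to 0.15 for *NRAS*, -0.051 to 0.39 for *CDKN2A*, -0.075 to 0.025 for *SMAD2*, -0.11 to 0.23 for *SMAD3* and -0.25 to 0.14 for *ARID1A*. Between the constructs it was -0.33 to 0.15 for *NRAS*, 0.32 to 0.76 for *CDKN2A*, -0.054 to 0.40 for *SMAD3* and -0.16 to 0.49 for *ARID1A*. For *EN1* it was 0.057 to 0.57, and limma-voom gave 0.040.

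*CDKN2B* and *SMAD4* did not pass the filter on low counts and were not tested across genes. For the other 6, changes within the 95% intervals are not excluded by these libraries. These intervals are approximate. They are narrower than the F test would imply, but that test was itself strict in these libraries. Their coverage was not tested, so changes somewhat beyond them are not shown to be excluded either.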
